A study of Homo sapiens with 12 samples.

Results

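GFI1 and GFI1B are zinc finger repressors that recruit LSD1 (gene KDM1A), a histone demethylase, together with the scaffold CoREST (gene RCOR1) and the histone deacetylases HDAC1 and HDAC2. These 6 genes, GFI1, GFI1B, KDM1A, RCOR1, HDAC1 and HDAC2, were taken by symbol from the deposited expression files, which list 56266 genes, and all 6 were present and passed the filter on low values. Each was followed through the differentiation of human embryonic stem cells (hESCs) into blood progenitors, with and without GATA2.

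GFI1 and GFI1B bind DNA through their zinc fingers and use a short N-terminal SNAG domain to dock on LSD1. LSD1 removes methyl groups from histone H3 lysine 4, CoREST holds the enzyme on nucleosomes, and the deacetylases remove histone acetyl groups, so that the assembled complex silences the genes it reaches. In the embryo the pair is known for switching off the endothelial program as hemogenic endothelium (HE) gives rise to blood, and in later blood GFI1 is known mainly in granulocyte and lymphoid cells and GFI1B in erythroid cells and megakaryocytes.

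RNA-Seq was analysed in 10 libraries, 2 from each of 5 groups. All came from H1, an established human ES cell line, either WT or H1-GATA2-/-, a line expanded from 1 clone in which both GATA2 alleles were disrupted by a neomycin cassette. The hESCs were undifferentiated GATA2-/- cells, and both lines were differentiated on OP9, a mouse stromal line. HEs were sorted on day 8 as CD34+CD31+ cells that lack CD43, and HPCs (hematopoietic progenitor cells) on day 9 as cells with both CD34 and CD43. WT hESCs were not analysed here, so both comparisons with hESCs are within GATA2-/- cells and share the same 2 hESC libraries. Nothing states that the replicates were separate cultures, so the p-values measure only the spread between these libraries, which may be technical.

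Levels are given in TPM, a transcript share that corrects for gene length and sets each library to the same total, so that levels of different genes can be compared but the read depth is unknown. Changes are differences of log2(TPM + 1), which understate the change of a gene near 0. They were tested with limma over the 21543 genes that reached a TPM of 1 in 2 libraries or more, and a gene was called changed at a Benjamini-Hochberg adjusted p under 0.05.

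The stages matched their labels by marker genes: the 8 pluripotency markers all fell from hESCs to both later stages, with summed TPM of 5674 to 6536 in hESCs and 225 to 376 afterwards, and all 14 endothelial markers rose in GATA2-/- HEs against hESCs. SPN, which encodes CD43, was at a TPM of 1.76 to 8.81 in HEs and 98.0 to 108 in HPCs, whereas PTPRC (CD45) was listed at 0 in all 4 HE libraries and at no more than 3.09 in HPCs. GATA2 itself had a TPM of 2.05 and 5.54 in GATA2-/- hESCs, 106.8 and 78.0 in WT HEs, 110.9 and 94.1 in GATA2-/- HEs, 290.1 and 204.2 in WT HPCs and 112.5 and 83.8 in GATA2-/- HPCs. Transcripts of the disrupted alleles count towards this value, which does not check the genotype labels in HEs. Mitochondrial genes took 6.29 to 6.82% of the total in HEs, 8.66 and 9.61% in WT HPCs and 15.1 and 14.8% in GATA2-/- HPCs.

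The sequences just before the transcription starts of GFI1 and GFI1B are shown because these 2 genes changed most between the stages. They are the 250 bases before each start in RefSeq on GRCh38.p14, written 5′ to 3′ on the strand of the gene. GFI1 has 3 starts, on the minus strand at chr1:92486926-92487175, chr1:92486100-92486349 and chr1:92483815-92484064, and GFI1B has 2, on the plus strand at chr9:132945281-132945530 and chr9:132978444-132978693. Capitals mark 4 motifs on either strand, which are GATAA (bound by GATA factors), TGNGGT (RUNX factors), AATCA (the core bound by GFI1 and GFI1B) and GAGGAA (SPI1), and no 2 marked matches overlap.
GFI1 start 1: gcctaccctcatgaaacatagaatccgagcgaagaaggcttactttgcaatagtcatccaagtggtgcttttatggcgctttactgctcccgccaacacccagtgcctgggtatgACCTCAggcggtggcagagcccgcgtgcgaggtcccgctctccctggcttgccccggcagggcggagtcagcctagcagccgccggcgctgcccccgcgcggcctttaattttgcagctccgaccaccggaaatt
GFI1 start 2: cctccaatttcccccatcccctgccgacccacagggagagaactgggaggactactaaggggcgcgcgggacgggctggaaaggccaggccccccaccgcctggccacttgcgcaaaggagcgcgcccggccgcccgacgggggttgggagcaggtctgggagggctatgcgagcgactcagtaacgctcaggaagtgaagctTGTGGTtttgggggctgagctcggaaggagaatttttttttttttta
GFI1 start 3: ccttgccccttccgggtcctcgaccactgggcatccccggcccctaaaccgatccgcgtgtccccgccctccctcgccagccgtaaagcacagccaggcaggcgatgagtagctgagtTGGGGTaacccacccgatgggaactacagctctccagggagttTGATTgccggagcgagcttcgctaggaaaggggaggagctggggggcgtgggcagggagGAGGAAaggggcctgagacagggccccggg
GFI1B start 1: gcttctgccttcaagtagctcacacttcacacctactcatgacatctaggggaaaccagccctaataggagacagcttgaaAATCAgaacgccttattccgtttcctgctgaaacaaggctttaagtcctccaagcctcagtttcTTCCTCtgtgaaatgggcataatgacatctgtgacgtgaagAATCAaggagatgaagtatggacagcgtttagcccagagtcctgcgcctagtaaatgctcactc
GFI1B start 2: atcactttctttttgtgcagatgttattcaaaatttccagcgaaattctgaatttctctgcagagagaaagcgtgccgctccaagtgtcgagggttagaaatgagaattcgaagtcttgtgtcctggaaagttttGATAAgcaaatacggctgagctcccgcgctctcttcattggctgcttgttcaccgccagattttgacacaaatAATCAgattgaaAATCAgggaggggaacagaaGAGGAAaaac

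Positions are counted back from the start, with −1 the last base before it. The downstream GFI1B window held GATAA at −115, AATCA at −42 and at −30 and GAGGAA at −10, and the upstream one held AATCA at −169 and −64 and TTCCTC, the reverse of GAGGAA, at −105. The first GFI1 window held ACCTCA, a RUNX match on the reverse strand, at −135, the second held TGTGGT at −47, and the third held TGGGGT at −132, TGATT (the reverse of AATCA) at −89 and GAGGAA at −30. All 3 GFI1 windows thus held the RUNX letters and none GATAA, while 1 of the 2 GFI1B windows held GATAA and neither the RUNX letters. Among 35116 RefSeq windows of the same length, 20.4% held GATAA, 37.7% TGNGGT, 31.4% AATCA and 23.6% GAGGAA, so that single matches are common. The KDM1A window held a RUNX and a GAGGAA match, that of RCOR1 none of the 4, that of HDAC1 AATCA and GAGGAA matches and that of HDAC2 RUNX and GAGGAA matches.

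GFI1 and GFI1B were close to 0 in hESCs and present in every HE and HPC library. GFI1 (ENSG00000162676, chromosome 1 from 92938600 to 92952482, minus strand, GRCh37) had a TPM of 0.13 and 0.26 in GATA2-/- hESCs, 33.6 and 23.0 in WT HEs, 19.9 and 7.58 in GATA2-/- HEs, 37.4 and 19.6 in WT HPCs and 36.98 and 25.3 in GATA2-/- HPCs. Both GATA2-/- HE libraries were below both WT HE and both GATA2-/- HPC libraries, and the 2 HPC groups overlapped each other and WT HEs. Against GATA2-/- hESCs, GFI1 rose by 3.49 on the log2 scale in GATA2-/- HEs (SE 0.47, limma adjusted p = 0.000653) and by 4.73 in GATA2-/- HPCs (SE 0.47, limma adjusted p = 0.000126). RNA was measured in bulk, so a difference in the number of cells that express a gene and one in the RNA per cell cannot be told apart here or in what follows.

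GFI1B (ENSG00000165702, chromosome 9 from 135819387 to 135867074, plus strand) had a TPM of 0.03 and 0.24 in GATA2-/- hESCs, 45.8 and 36.6 in WT HEs, 45.7 and 24.8 in GATA2-/- HEs, 123.7 and 131.1 in WT HPCs and 112.6 and 108.3 in GATA2-/- HPCs. All 4 HPC libraries lay above all 4 HE libraries, and those lay above hESCs. It rose by 4.94 in GATA2-/- HEs (SE 0.28, limma adjusted p = 6.72e-06) and by 6.62 in GATA2-/- HPCs (SE 0.28, limma adjusted p = 1.81e-06) against hESCs. From HE to HPC it rose by 1.61 in WT cells (SE 0.28, limma adjusted p = 0.00782), which is 3.06-fold, and by 1.68 in GATA2-/- cells (SE 0.28, limma adjusted p = 0.00506), which is 3.21-fold. The WT call was lost without WT HE replicate 2 (log2 1.46, adjusted p = 0.0717) and without WT HPC replicate 2 (log2 1.57, adjusted p = 0.0611). With all 4 HPC libraries above all 4 HE libraries, the same order necessarily held within replicate 1 and within replicate 2. The locus overlaps TSC1 on the opposite strand, at a TPM of 9.43 to 21.2 in the 10 libraries, and whether reads were counted by strand is not given in the sources used here.

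**Figure D1:**
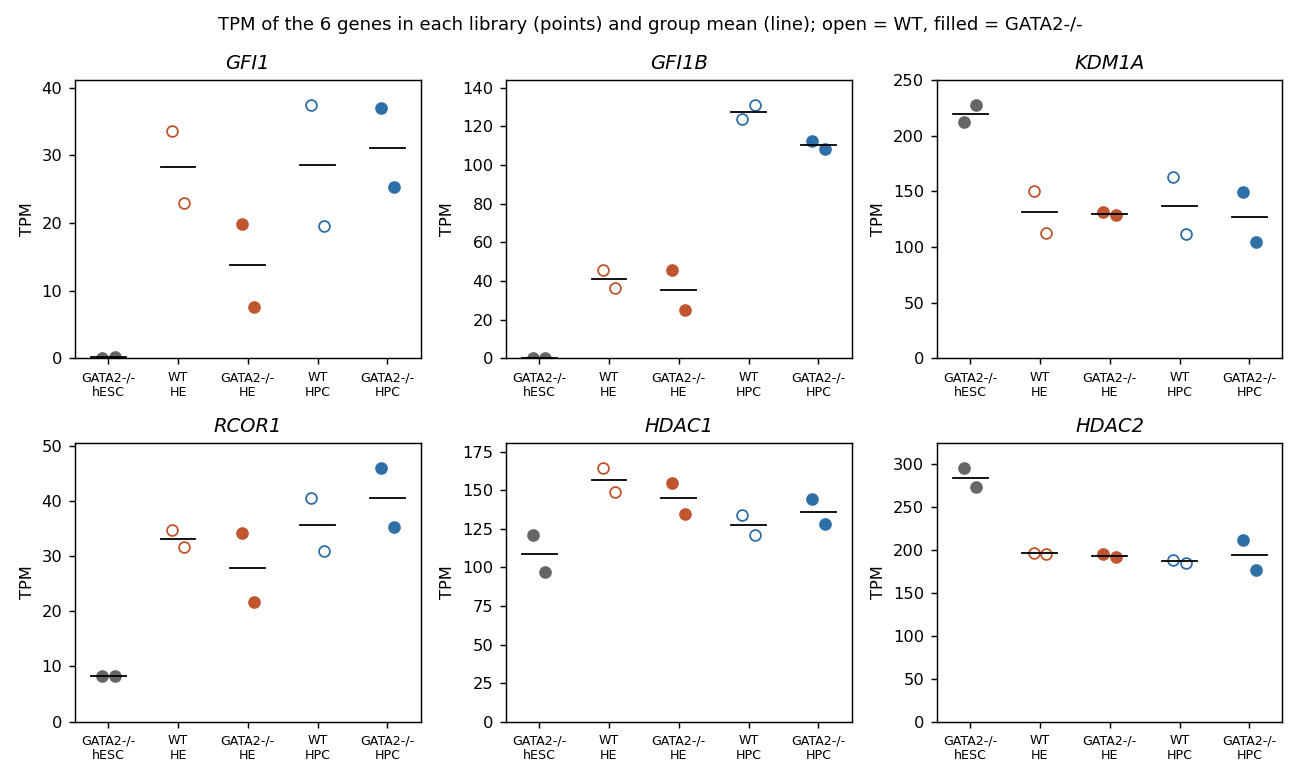
TPM of GFI1, GFI1B, KDM1A, RCOR1, HDAC1 and HDAC2 in each of the 10 libraries, on linear axes from 0; points are libraries (open for WT, filled for GATA2-/-) and lines are group means of 2. GFI1B steps up from hESC to HE to HPC, GFI1 and RCOR1 are lowest in hESCs and overlap between HEs and HPCs in WT but not in GATA2-/- cells, and KDM1A and HDAC2 are highest in hESCs.

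GFI1 levels in WT HPCs and HEs overlapped, with a log2 difference of −0.03 (95% interval −1.09 to 1.02). In GATA2-/- cells both HPC libraries were above both HE libraries, by 1.24 (SE 0.47), at an unadjusted limma p of 0.0268 and an adjusted p of 0.126. The summed TPM of the 2 repressors was 0.16 and 0.50 in hESCs, 32.4 to 79.4 in HEs and 133.6 to 161.1 in HPCs. In the log2 ratio of GFI1B to GFI1 within a library, the HPC mean was 2.0 ± 0.49 (SD, n = 4) and the HE mean 0.96 ± 0.52 (SD, n = 4), a difference of 1.05 that did not pass the exact two-sided permutation test over the 8 libraries (p = 0.0571; adjusted p = 0.171 over the 6 ratio tests made).

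The HPC libraries in which GFI1B was high also held more erythroid and megakaryocyte RNA. The 12 erythroid markers (globins, glycophorins and other red cell genes) summed to 47.3 to 209 in HEs and 5626 to 16856 in HPCs, with 10 of 12 called higher in HPCs in WT cells and 11 of 12 in GATA2-/- cells. The 8 megakaryocyte and platelet markers summed to 21.6 to 120 in HEs and 628 to 792 in HPCs, with 6 and 5 of 8 called higher. Of all genes, 3.32% were called higher from HE to HPC in WT cells and 5.5% in GATA2-/- cells. HBE1, the embryonic beta-like globin, rose by 7.43 in WT and 9.30 in GATA2-/- cells (limma adjusted p = 0.000294 and 0.000158), and ITGB3, an integrin of platelets, by 3.54 and 6.05 (limma adjusted p = 0.000981 and 0.000158). AHSP did not follow this: it was at 1.90 and 2.01 in hESCs and listed at 0 in every HE and HPC library but WT HPC replicate 2 (2.96). PPBP was listed at 0 in every HE library and in GATA2-/- HPC replicate 1, and was at 3.15 to 8.63 in the other HPC libraries. The part of these cells in the GFI1B difference was not tested.

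The granulocyte and monocyte list, where GFI1 is best known, was carried by few genes. It summed to 63.6 to 71.5 in HEs and 258 to 354 in HPCs, and 5 of its 10 genes passed the filter, of which 3 were called higher in WT HPCs against HEs and 4 in the GATA2-/- comparison (1 in all without WT HPC replicate 2, and 2 without GATA2-/- HE replicate 2 or GATA2-/- HPC replicate 2). FCER1G, a signaling subunit of Fc receptors, was at 40.6 to 56.2 in HEs and 173 to 237 in HPCs. CSF1R, the receptor of monocyte growth factor, was at 1.18 to 6.92 and 9.70 to 40.4. ELANE, the neutrophil elastase gene, was listed at 0 in all 10 libraries, and MPO was at no more than 3.82, while CSF3R, the granulocyte growth factor receptor, was at 1.59 to 6.69 in HEs and 9.89 to 26.97 in HPCs, and LYZ, the lysozyme gene, at 4.37 to 13.5 and 45.5 to 59.9. The 10 pan-hematopoietic markers summed to 354 to 492 in HEs and 1414 to 2215 in HPCs, with 8 called higher in WT and 6 in GATA2-/- HPCs, beside 3.32% and 5.5% of all genes. The WT count fell to 3 without WT HPC replicate 2, to 4 without WT HPC replicate 1 and to 5 without either WT HE library, and the GATA2-/- count to 3 without GATA2-/- HE replicate 2, GATA2-/- HPC replicate 2 or either WT HPC library.

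**Figure D2:**
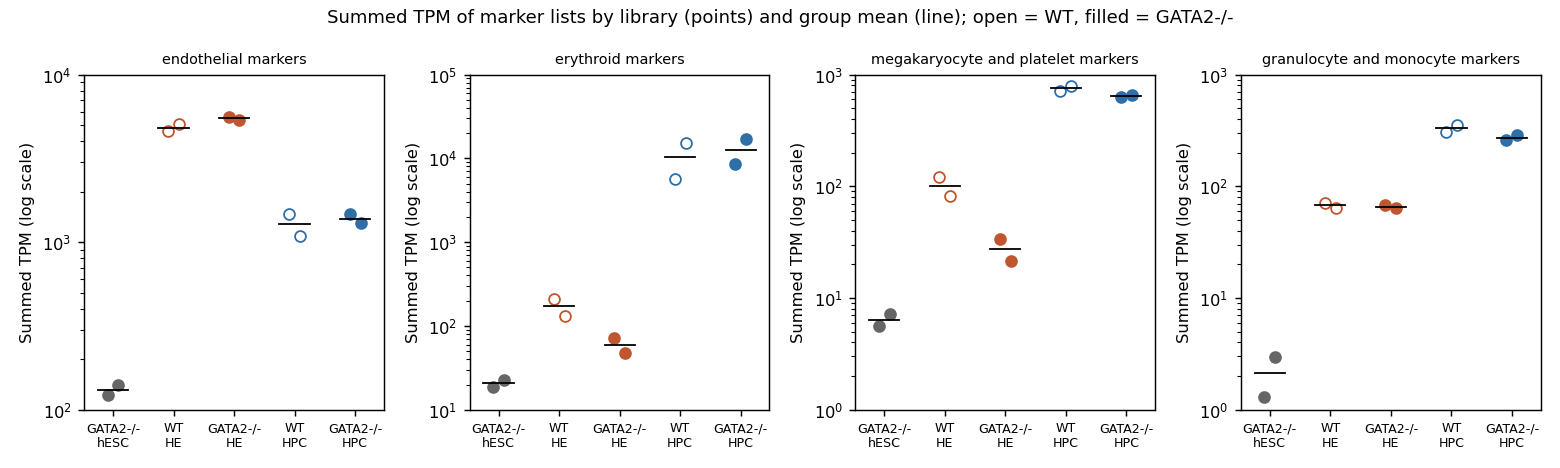
Summed TPM of 4 marker lists in each library, on log axes; points are libraries (open for WT, filled for GATA2-/-) and lines are group means of 2. Endothelial markers fall from HE to HPC while erythroid, megakaryocyte and granulocyte or monocyte markers rise, and the erythroid and megakaryocyte sums are lower in GATA2-/- HEs than in WT HEs.

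KDM1A, the demethylase, was abundant in all stages and highest in hESCs. KDM1A (ENSG00000004487, chromosome 1 from 23345936 to 23410182, plus strand) had a TPM of 212 and 227 in GATA2-/- hESCs, 150.0 and 113 in WT HEs, 132 and 128 in GATA2-/- HEs, 163 and 111 in WT HPCs and 149 and 105 in GATA2-/- HPCs. Both hESC libraries were above all others, and the 4 differentiated groups overlapped. In each of the 10 libraries KDM1A stood between the 92.3 and 96.4 percentile, ranked among genes whose TPM there reached 1. Against hESCs KDM1A fell by 0.75 in GATA2-/- HEs (SE 0.24, limma adjusted p = 0.0404) and by 0.81 in GATA2-/- HPCs (SE 0.24, limma adjusted p = 0.0303). These calls did not hold widely: with either hESC library left out the adjusted p was above 0.05 in both comparisons, as it was with no filter on low genes (0.0705 for HEs and 0.0542 for HPCs). The HE call was also lost without either GATA2-/- HE library, and the HPC call without GATA2-/- HPC replicate 2. Between HE and HPC it differed by 0.05 in WT cells (95% interval −0.49 to 0.58) and −0.06 in GATA2-/- cells (95% interval −0.59 to 0.48).

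RCOR1, the CoREST scaffold, was called higher against hESCs in both later stages, as GFI1 and GFI1B were. RCOR1 (ENSG00000089902, chromosome 14 from 103058986 to 103196898, plus strand) had a TPM of 8.32 and 8.33 in GATA2-/- hESCs, 34.8 and 31.6 in WT HEs, 34.1 and 21.7 in GATA2-/- HEs, 40.5 and 30.9 in WT HPCs and 45.9 and 35.3 in GATA2-/- HPCs. Every differentiated library was above both hESC libraries. The genotypes overlapped within each stage, as did HEs and HPCs in WT cells. In GATA2-/- cells both HPC libraries were above both HE libraries. It rose by 1.60 in GATA2-/- HEs (SE 0.26, limma adjusted p = 0.00188), or 3.03-fold, and by 2.14 in GATA2-/- HPCs (SE 0.26, limma adjusted p = 0.000376), or 4.42-fold. From HE to HPC the log2 difference was 0.09 in WT cells (95% interval −0.50 to 0.68) and 0.55 in GATA2-/- cells (95% interval −0.04 to 1.14), neither of them called.

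RCOR1 has paralogs, RCOR2 and RCOR3, which can take its place beside LSD1, and the makeup of the 3 scaffold transcripts shifted with the stage. RCOR2 had a TPM of 77.9 and 67.7 in hESCs, 54.7 and 67.4 in WT HEs, 80.8 and 78.9 in GATA2-/- HEs, 40.1 and 22.5 in WT HPCs and 30.1 and 19.5 in GATA2-/- HPCs. All 4 HPC libraries were below all other libraries, with a fall of 1.54 against hESCs (SE 0.29, limma adjusted p = 0.00411) and 1.68 against HEs (SE 0.29, limma adjusted p = 0.00633) in GATA2-/- cells, and a log2 difference of −0.99 in WT cells (SE 0.29, limma adjusted p = 0.0691). RCOR3 was at 16.3 to 23.8 in hESCs and HEs and 24.1 to 44.4 in HPCs, and was not called in any comparison. Of the summed TPM of the 3 genes, RCOR1 made up 8.12 and 8.84% in hESCs, 30.7 and 26.3% in WT HEs, 24.7 and 17.6% in GATA2-/- HEs, 32.4 and 37.8% in WT HPCs and 38.5 and 44.7% in GATA2-/- HPCs. RCOR2 made up 71.8 to 76.0% in hESCs, 48.3 to 64.0% in HEs and 24.8 to 32.1% in HPCs, so that it was the most abundant of the 3 in each hESC and HE library and in no HPC library.

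The log2 ratio of RCOR1 to the sum of RCOR2 and RCOR3 had a mean of −0.68 ± 0.30 (SD, n = 4) in HPCs, against −1.59 ± 0.43 (SD, n = 4) over the HE libraries. The difference of 0.92 separated the 4 HPC from the 4 HE libraries. With the genotypes pooled, it gave p = 0.0286 in the exact two-sided permutation test, the smallest that 70 splits allow. The adjusted p over the 6 ratio tests was 0.171. Left out 1 at a time, GATA2-/- HE replicate 2, WT HPC replicate 2 and either GATA2-/- HPC library moved that exact p to 0.0571, with a difference of 0.72 to 0.92.

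HDAC1 and HDAC2, the catalytic deacetylases shared by several corepressor complexes, were high throughout and moved little. HDAC1 (ENSG00000116478, chromosome 1 from 32757684 to 32799236, plus strand) had a TPM of 121.2 and 96.7 in GATA2-/- hESCs, 164.1 and 148.7 in WT HEs, 154.7 and 134.6 in GATA2-/- HEs, 134.0 and 121.3 in WT HPCs and 144.0 and 127.8 in GATA2-/- HPCs. All differentiated libraries were above the hESC libraries, the lowest of them only barely. HDAC1 differed from hESCs by 0.41 in GATA2-/- HEs (SE 0.16, limma adjusted p = 0.0922) and by 0.32 in GATA2-/- HPCs (SE 0.16, limma adjusted p = 0.175), and quantile normalization gave a call in both (log2 0.39 and 0.50). HDAC2 (ENSG00000196591, chromosome 6 from 114254192 to 114332472, minus strand) had a TPM of 295 and 273 in GATA2-/- hESCs, 197 and 196 in WT HEs, 195 and 192 in GATA2-/- HEs, 188 and 185 in WT HPCs and 212 and 176 in GATA2-/- HPCs. Both hESC libraries stood above the other 8, which lay between 176 and 212.

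HDAC2 fell by 0.55 against hESCs both in GATA2-/- HEs (SE 0.13, limma adjusted p = 0.0141) and in GATA2-/- HPCs (SE 0.13, limma adjusted p = 0.0136). Without GATA2-/- hESC replicate 1 neither call held, without either GATA2-/- HE library the first was lost, and without GATA2-/- HPC replicate 2 the second was. In HPCs quantile normalization also took the fall to 0.23, below the threshold. An antisense RNA, HDAC2-AS2, overlaps the locus and was at 26.4 and 19.2 in hESCs and 1.31 to 5.42 in the other libraries. Without strand, reads from any exon bases it shares with HDAC2 cannot be told apart, and exon overlap was not examined. Between HE and HPC, HDAC1 differed by −0.29 in WT cells (95% interval −0.66 to 0.08) and −0.09 in GATA2-/- cells (95% interval −0.46 to 0.28), and HDAC2 by −0.07 (95% interval −0.37 to 0.23) and −0.0032 (95% interval −0.31 to 0.30). HDAC1 pseudogenes were at 0 to 0.40.

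The balance of the 2 deacetylases leaned towards HDAC2 in every library. The log2 ratio of HDAC1 to HDAC2 was −1.28 and −1.49 in hESCs. Its mean was −0.53 ± 0.07 (SD, n = 4) over the HPC libraries, and over the HE libraries −0.37 ± 0.10 (SD, n = 4). The difference of −0.15 between HPCs and HEs had p = 0.0857 in the exact two-sided permutation test (adjusted p = 0.171). Their summed TPM lay between 304 and 416 in all 10 libraries.

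Counted over the set, 5 of the 6 genes were called between GATA2-/- HEs and hESCs, 3 higher (GFI1, GFI1B and RCOR1) and 2 lower (KDM1A and HDAC2), where 13.9% of all tested genes were called higher and 16.1% lower. The counts between GATA2-/- HPCs and hESCs were also 3 higher and 2 lower, against 14.2% and 16.4% of all genes. From HE to HPC, GFI1B alone was called, higher in WT cells, where 3.32% of all genes were called higher, and higher in GATA2-/- cells, where 5.5% were. The counts against hESCs fell to 3 of 6 in both comparisons with eBayes without trend, which left GFI1, GFI1B and RCOR1.

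**Figure D3:**
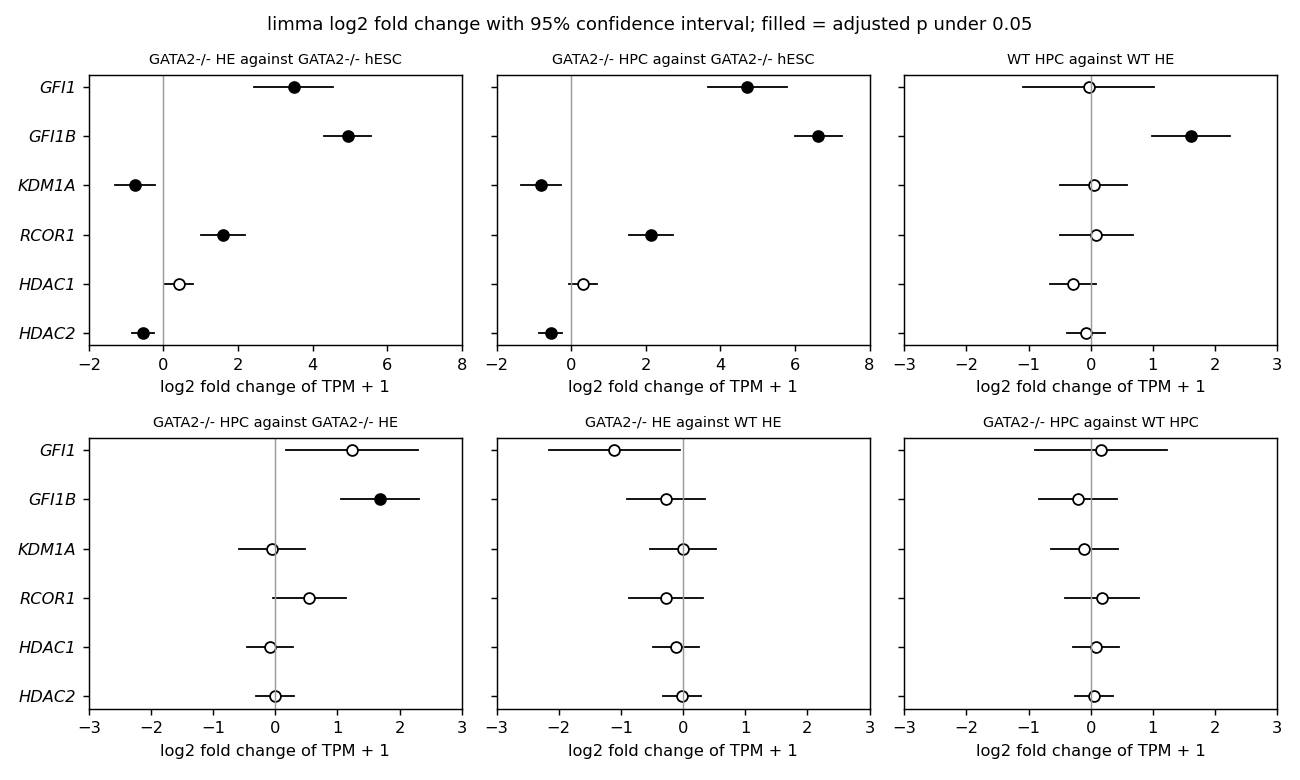
Log2 fold change of TPM + 1 of the 6 genes in 6 comparisons, with 95% confidence intervals from limma; filled points have an adjusted p under 0.05 and the first 2 panels have a wider axis. GFI1, GFI1B and RCOR1 lie right of 0 and KDM1A and HDAC2 left of it against hESCs, only GFI1B is filled between HPC and HE, and no point is filled between genotypes.

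Loss of GATA2 called none of the 6 genes. Between GATA2-/- and WT HEs limma called 0 of the 6 (1 at an unadjusted p under 0.05), against 0.0186% of all genes, which is 4 genes (1045 at an unadjusted p under 0.05). Between GATA2-/- and WT HPCs it called 0 of the 6 (0 at an unadjusted p under 0.05), against 0.0603% of all genes, which is 13 genes (1925 unadjusted). The genotype effect in HPCs was not shown to differ from that in HEs for any of the 6 genes, with 0 called (0 unadjusted) and 0.0% of all genes called (1281 genes unadjusted).

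GFI1 in HEs was the 1 value with an unadjusted p under 0.05. Both GATA2-/- HE libraries (19.9 and 7.58) were below both WT HE libraries (33.6 and 23.0), so GFI1 was necessarily lower within replicate 1 and within replicate 2. The log2 difference was −1.11 (SE 0.47, 95% interval −2.16 to −0.05), with a limma adjusted p of 0.990, and 16.5% of all tested genes had both GATA2-/- HE libraries below both WT ones. In HPCs the difference was 0.17 (95% interval −0.89 to 1.22), and the genotype effects of the 2 stages differed by 1.27 (95% interval −0.22 to 2.77, limma adjusted p = 0.876). In the same HE libraries the erythroid markers summed to 133 to 209 in WT and 47.3 to 72.0 in GATA2-/- cells, the megakaryocyte markers to 81.5 to 120 and 21.6 to 33.7, and the granulocyte and monocyte markers to 63.6 to 71.5 and 63.7 to 68.0. Of these lists 1 gene was called, PF4, a platelet chemokine, at 37.3 and 32.1 in WT and 3.66 and 4.70 in GATA2-/- HEs (log2 −2.79, limma adjusted p = 0.0249), and that call was lost in each of the 10 fits with a library left out (adjusted p up to 0.197). The part of such cells in the GFI1 values was not tested.

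The other genotype differences had 95% intervals that spanned 0. GFI1B differed by −0.27 in HEs (95% interval −0.91 to 0.36) and −0.20 in HPCs (95% interval −0.84 to 0.43). In HPCs both its GATA2-/- libraries were below both WT libraries, and the share of all genes in that order was not counted there. RCOR1 differed by −0.28 (95% interval −0.86 to 0.31) and 0.18 (95% interval −0.41 to 0.77). KDM1A differed by −0.0025 (95% interval −0.54 to 0.53) and −0.11 (95% interval −0.64 to 0.43), and HDAC1 by −0.11 (95% interval −0.48 to 0.26) and 0.09 (95% interval −0.28 to 0.46). HDAC2 differed by −0.02 (95% interval −0.32 to 0.28) and 0.05 (95% interval −0.26 to 0.35). In HEs both GATA2-/- libraries were below both WT libraries for HDAC2 too, as for 16.5% of all tested genes. Intervals of this width do not show equal levels. With labels exchanged within each stage, the exact permutation p between genotypes was 0.722 for the HDAC1 to HDAC2 ratio, 0.611 for GFI1B to GFI1 and 0.778 for RCOR1 to the other scaffolds, in a design that cannot go below 0.0556.

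The wider list of LSD1-CoREST partners, RCOR2 and RCOR3 included, had calls in both directions. Of its 9 genes, 0 were called higher and 1 lower in GATA2-/- HEs against hESCs (13.9% and 16.1% of all genes). In GATA2-/- HPCs against hESCs 2 and 1 were called (14.2% and 16.4%). From HE to HPC 1 and 0 were called in WT cells (3.32% and 6.59%) and 2 and 1 in GATA2-/- cells (5.5% and 7.24%). In the same order, median log2 changes were 0.27, 0.59, −0.00029 and 0.22, beside −0.02, 0.0, −0.01 and 0.03 over all tested genes. GSE1, a subunit of LSD1-CoREST complexes, moved most. Its TPM was 42.5 and 39.5 in hESCs, 42.3 and 26.7 in WT HEs, 22.4 and 14.1 in GATA2-/- HEs, 92.4 and 77.6 in WT HPCs and 98.7 and 101.4 in GATA2-/- HPCs. GSE1 fell by 1.16 in GATA2-/- HEs against hESCs (limma adjusted p = 0.0111), rose by 1.27 in GATA2-/- HPCs (limma adjusted p = 0.00713), and rose from HE to HPC by 1.31 in WT and 2.43 in GATA2-/- cells (limma adjusted p = 0.0166 and 0.000755). The GSE1 fall in HEs was lost without either hESC library or GATA2-/- HE replicate 2 (adjusted p up to 0.0862), its rise in HPCs against hESCs without either hESC library (up to 0.0622), and its WT rise from HE to HPC without either hESC library, WT HE replicate 2 or either WT HPC library (up to 0.116). The GATA2-/- rise of GSE1 from HE to HPC held in all 10 fits with a library left out. RCOR2, the 1 gene called lower in HPCs in both GATA2-/- comparisons, lost its call against hESCs without hESC replicate 1 (0.0539) and against HEs without GATA2-/- HPC replicate 2 (0.0528). ZMYM3, a zinc finger partner, rose from HE to HPC by 0.95 in GATA2-/- cells (limma adjusted p = 0.0124), with 34.3 and 35.7 in HEs and 67.9 and 69.3 in HPCs, a call lost without either GATA2-/- HE or either GATA2-/- HPC library (up to 0.0690).

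The other deacetylases had calls in both directions against hESCs. Of 9 other zinc-dependent HDACs, 2 were called higher and 1 lower in GATA2-/- HEs against hESCs, and 3 and 2 in GATA2-/- HPCs, beside 13.9% and 16.1%, then 14.2% and 16.4%, of all genes, with medians of 0.11 and 0.10. HDAC7, a class IIa deacetylase, was at 62.1 and 52.7 in hESCs and 153 to 240 in the 8 other libraries, a rise of 1.78 in GATA2-/- HEs (limma adjusted p = 0.000437). HDAC6, which is mainly cytoplasmic and acts on tubulin, was at 26.9 and 34.6 in hESCs, 71.2 to 126 in HEs and 122 to 167 in HPCs. HDAC9 fell by 1.34 and 2.10 against hESCs in GATA2-/- HEs and HPCs (limma adjusted p = 0.0334 and 0.00426), with the HE call lost without either hESC or either GATA2-/- HE library (adjusted p up to 0.140). HDAC3, the catalytic subunit of NCoR complexes, fell by 0.92 in GATA2-/- HPCs (limma adjusted p = 0.00789), a call lost without hESC replicate 1 or GATA2-/- HPC replicate 1 (up to 0.0697), and HDAC5 fell by 1.34 from HE to HPC in GATA2-/- cells (limma adjusted p = 0.0344), a call lost in 8 of the 10 fits with a library left out, all but those without a WT HPC library (adjusted p up to 0.171). It was the 1 call from HE to HPC in this list against 0 in WT cells (2 at an unadjusted limma p under 0.05). Of all genes, 5.5% were called higher and 7.24% lower from HE to HPC in GATA2-/- cells, and 3.32% and 6.59% in WT cells.

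NuRD and SIN3, the other complexes that hold HDAC1 and HDAC2, had single subunits called, in shares no higher against hESCs than those of all genes, but for the calls higher in HPCs (3 of 19). Of 19 subunits, 2 were called higher and 2 lower in GATA2-/- HEs against hESCs (13.9% and 16.1% of all genes), and 3 and 3 in GATA2-/- HPCs (14.2% and 16.4%). From HE to HPC 0 and 0 were called in WT cells (3.32% and 6.59% of all genes), with 1 at an unadjusted p under 0.05 in limma. In GATA2-/- cells 0 and 1 were called from HE to HPC (5.5% and 7.24%). In the same order, the medians were −0.19, 0.10, 0.01 and 0.08. CHD3, a remodeling ATPase of NuRD, was at 9.08 and 10.8 in hESCs and 35.0 to 58.3 in the 8 other libraries. ARID4A, a SIN3 subunit, rose by 1.30 in GATA2-/- HPCs against hESCs (limma adjusted p = 0.0455), a call lost in 8 of the 10 fits with a library left out, all but those without a WT HPC library (up to 0.234). MTA3, a NuRD scaffold, went the other way, from 122.5 and 120.7 to 15.4 to 35.5, with falls of 2.05 and 2.59 in GATA2-/- HEs and HPCs (limma adjusted p = 0.00105 and 0.000293). BRMS1, a SIN3 subunit, fell by 1.09 in GATA2-/- HPCs against hESCs and by 0.73 against GATA2-/- HEs (limma adjusted p = 0.00245 and 0.0346), and the second call was lost without any 1 of the 4 HE or the 2 GATA2-/- HPC libraries (up to 0.154). SAP30, another SIN3 subunit, rose by 1.12 and SUDS3 fell by 0.97 in GATA2-/- HEs against hESCs (limma adjusted p = 0.0196 and 0.0244), and both calls were lost without either hESC library or GATA2-/- HE replicate 2, and that of SAP30 also without GATA2-/- HE replicate 1 (up to 0.140 and 0.143).

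Of the 7 other factors with a SNAG domain, which can also dock on LSD1, 3 passed the filter on low values, all of the SNAIL family. SNAI1, known for its part in epithelial to mesenchymal transition, had a TPM of 4.94 and 5.98 in hESCs, 24.1 to 35.3 in HEs and 5.28 to 10.01 in HPCs. SNAI1 rose by 2.39 in GATA2-/- HEs against hESCs (limma adjusted p = 0.000143) and fell from HE to HPC by 1.31 in WT and 2.22 in GATA2-/- cells (limma adjusted p = 0.0107 and 0.000733), the WT call being lost without either WT HE library or WT HPC replicate 1 (up to 0.0809). SNAI2 was at 0.52 and 0.67 in hESCs, 13.6 to 14.2 in HEs and 2.57 to 7.97 in HPCs, and its HPC call against hESCs was lost without either hESC library or GATA2-/- HPC replicate 1 (limma adjusted p up to 0.143). SNAI3 was lower than in hESCs in both later stages, by 1.53 and 1.94 (limma adjusted p = 0.0266 and 0.00927), the first call being lost without hESC replicate 2 or either GATA2-/- HE library (up to 0.146) and the second without hESC replicate 2 or GATA2-/- HPC replicate 2 (up to 0.0627). The calls in this list were thus 2 higher and 1 lower, then 1 and 1 against hESCs, and 0 higher and 1 lower from HE to HPC in each genotype. For this list and the next, the shares of all genes called were 13.9% higher and 16.1% lower in GATA2-/- HEs against hESCs. In GATA2-/- HPCs against hESCs they were 14.2% and 16.4%. From HE to HPC they were 3.32% and 6.59% in WT cells and 5.5% and 7.24% in GATA2-/- cells. The 8 mesenchymal and stromal markers summed to 372 to 682 in HEs and 85.4 to 208 in HPCs. Both sorts required CD34, and that of HEs also CD31. Of the 8, 3 were called higher in GATA2-/- HEs against hESCs, 1 in HPCs, and 3 (COL3A1, LUM and COL1A2) lower from HE to HPC in each genotype (the GATA2-/- count fell to 1 without GATA2-/- HE replicate 2), while PDGFRB was at 2.99 to 8.24 in HEs and 12.5 to 15.6 in HPCs. Their part in the SNAI1 and SNAI2 values was not tested.

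The endothelial markers, a general list not chosen as targets of GFI1 or GFI1B, went down between the sorted stages. All 14 endothelial markers were called lower from HE to HPC in WT cells and all 14 in GATA2-/- cells, beside 6.59% and 7.24% of all genes. Their median log2 changes were −2.71 and −2.39, and their sum went from 4582 to 5601 in HEs to 1089 to 1466 in HPCs. CDH5 (VE-cadherin) was at 514 to 614 in HEs and 53.9 to 137 in HPCs, and EMCN at 67.4 to 179 and 5.52 to 17.0. In GATA2-/- HPCs 12 of the 14 were called above hESCs, beside 14.2% of all genes. The 2 populations were sorted apart by CD43, and the HE sort also required CD31. The part of GFI1 and GFI1B in the fall of these markers was not tested.

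Genes that GFI1 or GFI1B repress in other systems did not move in 1 direction. Of 17 such genes 16 were tested (ELANE was listed at 0), and 11 were called higher and 2 lower in GATA2-/- HEs against hESCs, 9 and 1 in GATA2-/- HPCs, and 5 higher and 5 lower from HE to HPC in each genotype, beside 13.9% and 16.1%, 14.2% and 16.4%, 3.32% and 6.59% (WT) and 5.5% and 7.24% (GATA2-/-) of all genes. The WT total of 10 fell to 4 without WT HE replicate 2 and to 6 without WT HE replicate 1, either WT HPC library or GATA2-/- HPC replicate 2. Their medians were 1.81 and 0.92 against hESCs and −0.22 and −0.27 from HE to HPC in WT and GATA2-/- cells. SPI1, a myeloid factor, was at 35.8 and 22.2 in WT HEs, 6.87 and 2.41 in GATA2-/- HEs, 195 and 151 in WT HPCs and 81.0 and 118 in GATA2-/- HPCs, and it rose from HE to HPC by 2.56 in WT and 4.25 in GATA2-/- cells (limma adjusted p = 0.00564 and 0.000498), the WT call being lost without WT HE replicate 2 (0.0593). EGR2, an immediate early gene, rose by 2.75 and 3.24 (limma adjusted p = 0.00198 and 0.000759), from 0.33 to 1.04 in HEs to 10.7 to 16.0 in HPCs.

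TGFBR3, a TGF beta coreceptor, was among those that fell from HE to HPC, by 3.78 in WT and 2.41 in GATA2-/- cells (limma adjusted p = 0.00114 and 0.00806, the second lost without GATA2-/- HE replicate 2 or GATA2-/- HPC replicate 1, at up to 0.0761), from 17.7 to 35.4 in HEs to 0.48 to 4.12 in HPCs. HOXA9 was at 5.22 or more in each HE library and was listed at 0 in all 4 HPC and both hESC libraries, so no fold is given. SOCS1, a brake on cytokine signaling, fell by 2.86 and 3.59 against hESCs in GATA2-/- HEs and HPCs (limma adjusted p = 0.000873 and 0.000249). GATA3 was at no more than 0.12 in hESCs, 22.0 to 31.0 in HEs and 3.26 to 9.72 in HPCs. MEIS1, a homeobox cofactor, was at no more than 0.07 in hESCs, 29.5 to 35.3 in HEs and 53.8 to 62.7 in HPCs. EGR1 was at 0.92 and 2.22 in hESCs, 14.9 to 92.5 in HEs and 214 to 242 in HPCs. Between genotypes limma called 0 of the 16 in either stage, beside 0.0186% of all genes in HEs and 0.0603% in HPCs. Before adjustment 4 (HE) and 1 (HPC) of the 16 were under 0.05, beside 1045 and 1925 of the 21543 tested genes.

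Most of the transcription factors known to act upstream of GFI1 and GFI1B in blood cells were called higher against hESCs. Of 12, GATA2 included, 10 were called higher and 0 lower in GATA2-/- HEs against hESCs, and 11 and 0 in GATA2-/- HPCs, with medians of 4.36 and 6.72, beside 13.9% and 14.2% of all genes called higher. From HE to HPC 6 were called higher and 1 lower in WT cells and 5 and 1 in GATA2-/- cells, with medians of 0.93 and 0.46, and the WT total of 7 fell to 3 without WT HE replicate 2. Of all genes, 3.32% were called higher and 6.59% lower from HE to HPC in WT cells, and 5.5% and 7.24% in GATA2-/- cells. GATA2 RNA in GATA2-/- cells includes that of the disrupted alleles. GATA1, which drives erythroid and megakaryocyte genes, was at 18.4 and 12.1 in WT HEs, 2.78 and 1.37 in GATA2-/- HEs, 172 and 220 in WT HPCs and 143 and 182 in GATA2-/- HPCs, and rose from HE to HPC by 3.62 and 5.76 (limma adjusted p = 0.000434 and 0.000158). RUNX1 was at 77.9 and 65.9 in WT HEs, 44.8 and 19.4 in GATA2-/- HEs, 327 and 198 in WT HPCs and 361 and 229 in GATA2-/- HPCs. TAL1 and FLI1, which were at no more than 0.22 in hESCs, were at 156 to 261 and 200.4 to 233 in HEs and at 162 to 253 and 164 to 203 in HPCs. ERG was the factor called lower from HE to HPC, by 2.72 and 2.36 (limma adjusted p = 0.00122 and 0.00196).

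In HEs both GATA2-/- libraries were below both WT libraries for GATA1, RUNX1 and SPI1, as for GFI1 and 16.5% of all tested genes. MYB (26.5 and 14.5 in WT, 6.67 and 3.53 in GATA2-/- HEs) and CBFB (44.7 and 47.1, 39.5 and 43.05) were below likewise. LMO2 went the other way, at 197.8 and 188.0 in WT and 275.4 and 237.7 in GATA2-/- HEs, and the other factors overlapped. The log2 differences were −2.41 (SE 0.31, limma adjusted p = 0.0814) for GATA1 and −1.25 (SE 0.48, limma adjusted p = 0.944) for RUNX1. That of SPI1 was −2.50 (SE 0.41, limma adjusted p = 0.250), none of them called, and that of TAL1 was 0.23 (SE 0.28). Of the 12 factors limma called 0 between genotypes in either stage, beside 0.0186% of all genes in HEs and 0.0603% in HPCs. Before adjustment 4 (HE) and 1 (HPC) of the 12 were under 0.05, beside 1045 and 1925 of the 21543 tested genes.

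The 6 genes were also set beside all others by the pattern of log2(TPM + 1) over the 10 libraries, among 11556 genes with a group mean TPM of at least 10 in some group. The 5 genes most like GFI1 were RCOR1 (Pearson's r = 0.994), LEPR (0.992), ZNF316, ART4 and IL6ST (0.989 each). The 5 most like GFI1B were SDPR, SP100 and BTK (0.996 each), C2orf88 (0.994) and FERMT3 (0.993). The 3 most like RCOR1 were IL6ST, GFI1 (0.994 each) and MICAL2 (0.992), so that GFI1 and RCOR1 named each other. UBE2G1 (0.967), NOL10 (0.958) and UTP20 (0.956) were nearest to KDM1A, SUCO (0.968), CERS6 (0.964) and ZNF335 (0.958) to HDAC1, and PSMC2 (0.992), PPL (0.985) and LINGO1 (0.984) to HDAC2.

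The 2 hESC libraries stand apart from the rest and weigh on these values. Over the 8 HE and HPC libraries alone r was 0.941 for GFI1 and RCOR1, 0.627 for GFI1 and GFI1B, 0.692 for GFI1B and RCOR1, 0.43 for GFI1 and KDM1A and 0.052 for GFI1B and KDM1A. In those 8 libraries replicate 2 was below replicate 1 in all 4 groups for 5 of the 6 genes, every one but GFI1B, where 15.4% of all tested genes had replicate 2 below in all 4. The 4 replicate 2 libraries of HEs and HPCs share an ending in their column headers whose meaning is not stated. Correlations over these libraries contain that shared difference, and its part was not tested.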

How the data were processed

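Per the paper's methods and the labels, TruSeq libraries were read single-end on a MiSeq, and the authors trimmed the reads with Trimmomatic, mapped them to hg19 with Bowtie and deposited a TPM value for each gene. The submitters' processing notes also name RSEM and mm10 without saying what each was used for, and strandedness is not given in the sources used here. TPM keeps no depth, so counting error is unknown and precision rests on 2 replicates per group.

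From the deposited TPM, log2(TPM + 1) of the 21543 genes that reached a TPM of 1 in 2 libraries or more was fitted with limma 3.58.1 in R 4.3.3 (5 group means over all 10 libraries, eBayes with trend, Benjamini-Hochberg adjustment, threshold 0.05). The procedure was also run on simulated data with independent noise and large planted changes. Those data do not check it for small changes or for differences shared between replicates. The study's Cuffdiff analysis needs alignments and was not repeated. Ratios within a library were compared by exact permutation tests. Those of HPCs against HEs pooled the genotypes to reach a p under 0.05, and labels moved freely across genotypes. Python 3.11.15 with pandas 2.3.3 and scipy 1.17.1 was used for these and for the descriptions. Positions come from GENCODE on GRCh37 and promoters from RefSeq on GRCh38.p14.

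The 6 genes, the gene lists, the tests and the motifs were chosen with earlier results of these data known. Named were the 6 genes, from each list at most 2 risers and 2 fallers of greatest size among the genes called in a stage comparison, every listed gene called between genotypes, and the 5 (GFI1, GFI1B) or 3 (other genes) nearest in pattern. SPN, PTPRC, ELANE, MPO and other listed genes beyond the rule, and the overlapping genes, were named after their values were seen. Alternatives were a pseudocount of 0.1, no filter, only the libraries of a comparison, a replicate block, quantile normalization, rescaling without mitochondrial and globin genes, eBayes without trend and each library left out. A block within HE and HPC libraries only was added after seeing the data. The 2 WT hESC samples were not analysed here. 1 listed gene that the rule would name is not reported here.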

Additional observations from a re-analysis of the deposited data

How the results depend on the processing

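With 2 libraries per group and no read depth, small changes cannot be resolved, and genes near 0 are flattened by the pseudocount. GFI1, GFI1B and RCOR1 kept their calls against hESCs under each alternative tried, each left-out library included. No source says that a replicate number marks a shared culture or day, and not every pair of groups deviated together: the deviations of WT and GATA2-/- HEs had r = 0.123, those of WT and GATA2-/- HPCs 0.055, and the other pairs −0.014 to 0.032.

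With eBayes without trend 3 of the 6 genes were called in each comparison with hESCs, and 12 genes in all between genotypes in HEs and 20 in HPCs. With only the libraries of a comparison, 4386 genes and 3 of the 6 were called between GATA2-/- HPCs and hESCs, and 0 genes in all in both HPC against HE comparisons and both genotype comparisons, so 0 of the 6; fewer libraries enter those fits. A pseudocount of 0.1 gave 0 of the 6 between WT HPCs and HEs and 6 genes in all between genotypes in HPCs. Without a filter 13 genes were called between genotypes in HEs. With the replicate block 2 genes were called between genotypes in HEs and 3 in HPCs, HDAC1 against hESCs in HEs gained a call (adjusted p = 0.0280), and the HPC and HE ratio of RCOR1 to the other scaffolds kept its difference of 0.92 at an exact permutation p of 0.0556. A block within HE and HPC libraries only, chosen after seeing the data, gave 2 and 3 genes between genotypes and 2 of the 6 between GATA2-/- HPCs and HEs, the second being GFI1 (adjusted p = 0.0183).

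Quantile normalization and rescaling without mitochondrial and globin genes turned differences that were within their errors: GFI1 between WT HPCs and HEs to 0.089 and 0.018, and between GATA2-/- HPCs and HEs KDM1A to 0.15 and 0.10, HDAC1 to 0.11 and 0.067 and HDAC2 to 0.23 and 0.15. Quantile normalization also turned HDAC2 between WT HPCs and HEs to 0.086. Rescaling moved the median of all genes by 0.12 between GATA2-/- HPCs and HEs, and by less than 0.1 elsewhere.

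With single libraries left out (1 at a time), the genes called ranged from 4075 to 6478 and the members from 3 to 5 between GATA2-/- HEs and hESCs, from 4180 to 6550 and 3 to 5 between GATA2-/- HPCs and hESCs, from 849 to 2073 and 0 to 1 between WT HPCs and HEs, and from 1257 to 2685 between GATA2-/- HPCs and HEs, from 0 to 1 between genotypes in HEs, 0 to 14 in HPCs and 0 to 5 for their difference. The log2 changes that turned ranged as follows. Between WT HPCs and HEs GFI1 went from −0.48 to 0.41, KDM1A from −0.22 to 0.32 and RCOR1 from −0.10 to 0.28. Between GATA2-/- HPCs and HEs KDM1A went from −0.31 to 0.20, HDAC1 from −0.19 to 0.012 and HDAC2 from −0.13 to 0.13. Between genotypes in HEs GFI1B went from −0.70 to 0.16, KDM1A from −0.20 to 0.20 and RCOR1 from −0.59 to 0.040. Between genotypes in HPCs GFI1 went from −0.28 to 0.62, KDM1A from −0.38 to 0.17, RCOR1 from −0.0092 to 0.37 and HDAC2 from −0.083 to 0.18. For the difference of the genotype effects GFI1B went from −0.36 to 0.50, KDM1A from −0.37 to 0.17 and HDAC2 from −0.064 to 0.20. Between HPCs and HEs the ratio of HDAC1 to HDAC2 ranged from −0.20 to −0.12, GFI1B to GFI1 from 0.82 to 1.26 and RCOR1 to the other scaffolds from 0.72 to 1.06, and between genotypes they ranged from −0.070 to 0.017, −0.014 to 0.48 and −0.24 to 0.057. The cause of these changes was not tested.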
